A study of Mus musculus with 18 samples.

Results

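The subunits of the mitochondrial respiratory chain and of ATP synthase that are encoded in the nucleus were followed through 18 RNA sequencing libraries of mouse dendritic cells grown from bone marrow. Members were the rows whose gene symbol began with Ndufa, Ndufb, Ndufc, Ndufs or Ndufv and a digit, with Uqcr, with Cox4 to Cox8 or with Atp5, and the symbols Sdha to Sdhd. The rule took 86 of the 16614 genes of the table, and it used no measured value. Complex I held 39 of them, complex II 4, complex III 8, complex IV 18 and complex V 17. Ndufa4 and its paralogue Ndufa4l2 were counted with complex IV, where their products are now placed. The rule left out Ndufab1, the cytochrome c1 gene Cyc1, the cytochrome c gene Cycs and the ATP synthase inhibitor Atpif1, whose values are given at the end, and the 13 subunits encoded in mitochondrial DNA were not analysed here.

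The study is titled for the balance of STAT5 and STAT3 in dendritic cells and compared KO with WT cells, each either kept as a control or given LPS (lipopolysaccharide of bacterial walls, which Toll-like receptor 4 senses). The 4 groups were KO LPS (5 libraries), WT LPS (5), KO control (4) and WT control (4), all of them cells of the type the labels call BMDC. Marrow of every group was cultured for 7 to 10 days in the growth factors Flt3L, at 100 ng/ml, and GM-CSF, at 20 ng/ml. After that, CD11c+ Xcr1+ cells were sorted or XCR1+ cells were taken with beads. Which gene was deleted, the strain and age of the mice, the LPS dose and time and the purification of each library are not given in the labels. Nor do they say whether replicates were separate cultures or animals, so the p-values below measure only the spread between these libraries, which may be technical.

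As background, complexes I and II pass electrons from NADH and succinate to ubiquinone, complex III passes them on to cytochrome c, and complex IV hands them to oxygen. Complexes I, III and IV pump protons across the inner membrane, and complex V, the ATP synthase, uses the gradient to make ATP. In myeloid cells, stimulation through Toll-like receptors is known to turn metabolism towards glycolysis, and succinate, complex I and complex II have been studied there as sources of inflammatory signals.

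Libraries held 25590104 to 27375189 estimated counts. Levels are given as CPM (counts scaled to the library total) scaled by the TMM factors of edgeR, which averaged 0.769 in KO LPS, 0.814 in WT LPS, 1.32 in KO control and 1.36 in WT control. A gene was called higher or lower where edgeR's quasi-likelihood test gave a Benjamini-Hochberg adjusted p under 0.05 over the 11989 genes tested. The cDC1 markers Xcr1, Clec9a and Irf8 were read in every group, and all 8 genes of that list averaged 1 CPM or more in each, whereas mast cell and basophil genes summed to at most 0.148 CPM in any library. Genes linked to monocytes and macrophages were also present, summing to 1091 to 1689 CPM in KO LPS, 1302 to 1556 CPM in WT LPS, 1803 to 2064 CPM in KO control and 1758 to 1844 CPM in WT control. These sums came mostly from Lyz2. In both genotypes Lyz2, Ccr2 and Csf1r had lower means with LPS, whereas Adgre1, Mertk, Fcgr1, C5ar1, Ly6c2 and Cd14 had higher ones. Cd14 averaged 33.6 CPM in KO LPS and 36.1 CPM in WT LPS, against 1.63 CPM in KO control and 1.55 CPM in WT control. WT LPS replicate 2 stood apart from the other WT LPS libraries, with a chi-square per gene of 25.8 to 73.7 against them, and KO control replicate 4 from the other KO control libraries, with 17.3 to 19.0 against them. Neutrophil genes reached 70.3 CPM in 1 WT LPS library and 18.8 CPM in 1 WT control library, and at most 1.70 CPM in KO libraries. Counts of bulk RNA cannot tell fewer cells of a type from less RNA per cell.

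Of the 86 members, 79 passed the filter on low counts. The 7 that did not are tissue-restricted or duplicated forms, namely the complex I genes Ndufb4b and Ndufs6b and the complex IV genes Cox4i2, Cox6a2, Cox6b2, Cox8b and Ndufa4l2. Their counts over all 18 libraries came to 23 for Ndufb4b, 19 for Ndufs6b, 31 for Cox4i2, 34 for Cox6a2, 51 for Cox6b2, 1 for Cox8b and 55 for Ndufa4l2, and none averaged more than 0.925 TPM in any group. Of the tested members, 25 overlap another annotated gene, among them Sdhc, Atp5b, Uqcrc2 and Ndufb11, and since the use of strand in counting is not given in the sources used here, reads of the partner cannot be told apart. The ubiquitous partner of Cox4i2 lay far above it, with Cox4i1 at 772 TPM in KO LPS, 812 in WT LPS, 806 in KO control and 787 in WT control. Cox7a1, the heart and muscle form of subunit 7a, passed the filter at 12.7 TPM in KO LPS, 11.4 in WT LPS, 9.91 in KO control and 7.96 in WT control, while its partner Cox7a2 lay at 128, 139, 131 and 145 TPM in the same order.

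On the scale of the deposited TPM values, which are per transcript length, complexes IV and V had the highest medians over tested members in all 4 groups, followed by complex III. In KO LPS libraries the median member had 438 TPM in complex IV, 402 in complex V, 158 in complex III, 78.6 in complex I and 81.4 in complex II, so complexes I and II lay close together and no order between them is read. The WT control libraries gave 527, 489, 208, 131 and 114 TPM in the same order. The highest member was Atp5e, the epsilon subunit of the F1 head, at 1047 TPM in KO LPS, 1048 in WT LPS, 1166 in KO control and 1083 in WT control. Within complex I, the 7 core subunits, which carry the flavin and the iron-sulphur clusters, had a median of 35.4 TPM in KO LPS, 38.4 in WT LPS, 80.9 in KO control and 85.3 in WT control. The 30 tested accessory subunits, which surround that core, had medians of 92.6, 101.4, 139.7 and 139.2 TPM in the same groups.

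All 86 members were found in RefSeq by gene ID, and 66 of the tested ones have a promoter there of 250 bases before and 50 bases after the start (build GRCm38.p6). Promoters were searched on both strands for letters of 3 factors known to act on respiratory chain genes. The NRF1 letters, GCGCA and GCGC with any 1 base between them, stood in 17 of 66 members (25.8%) and in 11.7% of the 9641 tested genes with a promoter. The GABPA letters CCGGAAGT stood in 5 members (7.58%) and in 9.43% of tested genes, and the YY1 letters ATGGCGGC in 6 members (9.09%), all of them complex I genes, and in 5.78% of tested genes. In all, 26 members (39.4%) held at least 1 of the 3, against 24.4% of tested genes. By complex, NRF1 letters stood in 7 of 32 members of complex I, 2 of 3 of complex II, 1 of 5 of complex III, 1 of 11 of complex IV and 6 of 15 of complex V. A match is a run of letters and does not show that a factor binds. The 250 bases before the start of 5 members are shown because these members mark the spread of responses described below, from the lowest fold changes with LPS (Ndufa6, Cox7a2l) and another that fell (Ndufa8) to members that rose on TMM scaling (Cox6a1, Sdha). They were chosen after their values were seen. Capitals mark the NRF1 letters or their reverse complement, and positions are on GRCm38.p6.
Ndufa6: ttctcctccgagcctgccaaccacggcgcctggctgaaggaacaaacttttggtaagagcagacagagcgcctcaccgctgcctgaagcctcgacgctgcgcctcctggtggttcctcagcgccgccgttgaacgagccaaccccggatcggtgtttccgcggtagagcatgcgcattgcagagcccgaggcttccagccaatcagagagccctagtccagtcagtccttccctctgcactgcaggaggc
Cox7a2l: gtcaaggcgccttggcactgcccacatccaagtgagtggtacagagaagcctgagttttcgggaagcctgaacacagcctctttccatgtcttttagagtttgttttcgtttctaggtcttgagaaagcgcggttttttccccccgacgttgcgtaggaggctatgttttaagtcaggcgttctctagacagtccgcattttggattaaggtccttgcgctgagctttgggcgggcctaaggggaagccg
Ndufa8: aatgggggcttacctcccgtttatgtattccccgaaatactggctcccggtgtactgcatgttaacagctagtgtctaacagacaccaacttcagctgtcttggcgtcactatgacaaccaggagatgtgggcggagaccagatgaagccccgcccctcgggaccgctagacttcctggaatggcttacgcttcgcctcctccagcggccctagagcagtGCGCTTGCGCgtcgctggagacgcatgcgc
Cox6a1: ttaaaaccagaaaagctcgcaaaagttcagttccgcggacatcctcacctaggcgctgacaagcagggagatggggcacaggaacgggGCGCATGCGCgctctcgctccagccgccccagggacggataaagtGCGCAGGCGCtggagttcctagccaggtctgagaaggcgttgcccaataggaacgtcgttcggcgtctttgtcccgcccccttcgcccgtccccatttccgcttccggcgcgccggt
Sdha: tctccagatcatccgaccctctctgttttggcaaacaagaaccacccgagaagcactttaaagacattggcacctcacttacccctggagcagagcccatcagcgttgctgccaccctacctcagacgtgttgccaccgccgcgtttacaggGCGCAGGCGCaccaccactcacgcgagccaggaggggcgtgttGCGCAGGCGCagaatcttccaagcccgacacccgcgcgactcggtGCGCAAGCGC
These stretches are chr15:82354292-82354541, minus strand, for Ndufa6; chr17:83514334-83514583, minus strand, for Cox7a2l; chr2:36049339-36049588, minus strand, for Ndufa8; chr5:115348959-115349208, minus strand, for Cox6a1; and chr13:74350241-74350490, minus strand, for Sdha. Sdha has 3 matches, which begin 98, 55 and 10 bases before the start, Cox6a1 has 2, which begin 162 and 117 bases before it, and Ndufa8 has 1, which begins 30 bases before it. Neither of the members with the lowest fold changes has a match in the printed bases, although Ndufa6 has NRF1 letters from base 24 after its start. Members that rose on TMM scaling stand on both sides. Atp5g3 holds NRF1 letters like Cox6a1 and Sdha, whereas Cox5a, Atp5b and Ndufb1 hold none. Whether the letters go with the response to LPS was not tested.

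With LPS against control, most subunits of complexes II to V rose on TMM scaling, while those of complex I were called in both directions. In KO cells 52 of 79 members were called higher and 17 lower, where 40.0% of all genes tested were higher and 46.2% lower. In WT cells 62 members were called higher (78.5%) and 6 lower (7.59%), where 40.7% of all genes tested were higher and 44.7% lower. The median log2 fold change of the members was 0.33 in KO and 0.53 in WT, beside -0.10 in KO and -0.06 in WT for all genes tested. Summed over the members, the level was 6441 ± 116 CPM in KO LPS and 6658 ± 295 CPM in WT LPS (SD, n = 5 each), against 5116 ± 228 CPM in KO control and 4875 ± 199 CPM in WT control (n = 4 each), and no LPS library overlapped a control library. The direction depends on the scaling. As a share of the raw estimated counts, members took 0.495% in KO LPS, 0.541% in WT LPS, 0.676% in KO control and 0.664% in WT control, and with total-count scaling 0 members were called higher and 65 lower in KO, and 2 higher and 49 lower in WT. At that scaling 20.2% of all genes tested were higher and 70.4% lower in KO, and 19.8% higher and 69.9% lower in WT. Total-count scaling moved the median of all genes tested to -0.88 in KO and -0.80 in WT. Relative to that median the members stood higher by 0.44 in KO and 0.59 in WT with TMM and by 0.43 and 0.59 with total-count scaling, and less far above it with the length-trend offset given below. The rises given below are therefore rises relative to the bulk of genes. Marker lists moved with LPS as well. The pDC list of 4 genes summed to 531 to 583 CPM in KO LPS and 459 to 667 CPM in WT LPS, against 73.5 to 80.6 CPM in KO control and 65.5 to 69.0 CPM in WT control, nearly all of it from Bst2 and Tcf4, while Siglech averaged 1.18 CPM in KO LPS, 1.23 CPM in WT LPS, 3.57 CPM in KO control and 3.76 CPM in WT control. The general DC list, mostly H2-Ab1, summed to 15013 to 15951 CPM in KO LPS and 13739 to 15584 CPM in WT LPS, against 8304 to 8735 CPM in KO control and 7047 to 8117 CPM in WT control. The cDC1 list summed to 2593 to 3237 CPM in KO LPS and 3129 to 3802 CPM in WT LPS, against 4327 to 4418 CPM in KO control and 4133 to 4205 CPM in WT control, but its members Xcr1 and Clec9a had higher means with LPS in both genotypes. The cDC2 list summed to 97.7 to 143.5 CPM in KO LPS and 139 to 209 CPM in WT LPS, against 182 to 190 CPM in KO control and 188 to 220.0 CPM in WT control. The 10 proliferation genes summed to 616 to 793 CPM in KO LPS and 584 to 1126 CPM in WT LPS, against 1049 to 1118 CPM in KO control and 1403 to 1623 CPM in WT control. Their part in these values was not tested.

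**Figure D1:**
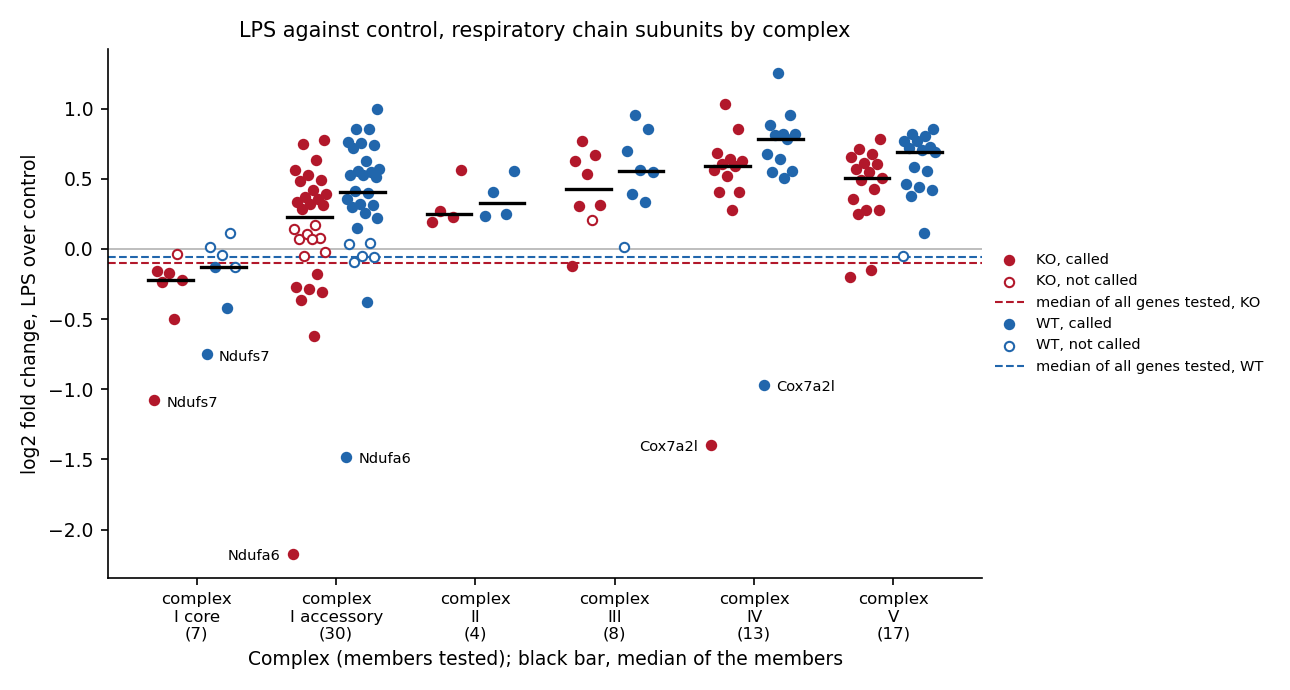
Each point is a tested member, with its log2 fold change of LPS over control (y axis, TMM scaling) in KO cells (red, left) and WT cells (blue, right), by complex (x axis, with the number tested). Filled points were called, open points were not, black bars are medians of the members, and dashed lines are the medians of all genes tested. Complex IV and V points lie mostly above 0, the 7 core subunits of complex I lie at or below 0.11, and Ndufa6, Cox7a2l and Ndufs7 lie lowest; with total-count scaling all points shift down by about the same amount.

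Complex I, the NADH dehydrogenase, had 15 of 37 tested members called higher and 13 lower in KO cells, and 23 higher and 5 lower in WT cells, on TMM scaling. Its 40.5% higher in KO was near the 40.0% of all genes tested and its 35.1% lower was below their 46.2%. In WT 40.7% of all genes tested were higher and 44.7% lower. With total-count scaling 70.4% of all genes tested were lower in KO and 69.9% in WT. In complex I, 34 members were then lower in KO and 28 in WT, and none was higher. The largest fall was that of Ndufa6, an accessory subunit that binds the mitochondrial acyl carrier protein. It lay at 14.8, 14.8, 17.3, 14.0 and 13.8 CPM in the KO LPS libraries and 19.8, 15.6, 23.5, 19.9 and 19.2 CPM in the WT LPS libraries. Its levels without LPS were 62.6, 72.3, 63.4 and 71.1 CPM in KO control and 56.6, 57.9, 51.4 and 53.8 CPM in WT control. Every LPS library lay below every control library of either genotype. The log2 fold change was -2.17 ± 0.09 (SE) in KO (edgeR adjusted p = 1.02e-14) and -1.48 ± 0.09 in WT (adjusted p = 3.32e-12), and it was -2.95 in KO and -2.22 in WT with total-count scaling. Ndufs7, a core subunit that carries the iron-sulphur cluster next to ubiquinone, lay at 12.6, 12.5, 13.0, 13.3 and 12.6 CPM in the KO LPS libraries and 16.0, 12.2, 17.5, 13.1 and 14.4 CPM in the WT LPS libraries. KO control libraries held 26.3, 26.9, 25.8 and 29.2 CPM and WT control libraries 26.1, 26.2, 22.7 and 23.7 CPM. Here too all LPS libraries lay below all control libraries. The log2 fold change was -1.08 ± 0.08 in KO (edgeR adjusted p = 2.29e-10) and -0.75 ± 0.08 in WT (adjusted p = 5.32e-08), or -1.86 and -1.49 with total-count scaling.

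The remaining complex I members that fell in WT were Ndufs3, Ndufa8 and Ndufs1, which are named after their values were seen except for Ndufs1. Ndufs3, a core subunit, changed by -0.50 in KO and -0.42 in WT (log2), and Ndufa8, an accessory subunit on the side of the intermembrane space, by -0.62 in KO and -0.38 in WT, with edgeR adjusted p at or below 5.67e-05 in all 4 tests. Ndufs1, the largest core subunit, fell by less, with -0.17 ± 0.05 in KO (adjusted p = 0.00354) and -0.13 ± 0.05 in WT (adjusted p = 0.0175). These values were -0.04 and -0.07 with the length-trend offset, which removes from each library a smooth trend of level on transcript length. Ndufv1, which binds the flavin and NADH, changed by -0.24 ± 0.06 in KO (adjusted p = 0.00189) and -0.13 ± 0.06 in WT (adjusted p = 0.0644). On TMM scaling, of the 7 core subunits, 0 rose and 6 fell in KO, and 0 rose and 3 fell in WT, with medians of -0.22 and -0.13. Of the 30 tested accessory subunits, on the same scaling, 15 rose and 7 fell in KO, and 23 rose and 2 fell in WT, with medians of 0.23 and 0.40. Of all genes tested, 40.0% rose and 46.2% fell in KO, and 40.7% rose and 44.7% fell in WT. The 42.9% of core subunits that fell in WT was thus near the share of all genes. The split into core and accessory subunits was made after the values were seen, and core transcripts were longer, with a median effective length of 1.25 kb against 0.372 kb. Among the accessory risers, Ndufb1, a small subunit of the membrane arm, had 24.0 ± 2.31 CPM in KO LPS and 26.6 ± 7.12 CPM in WT LPS (SD, n = 5 each), against 14.1 ± 0.752 CPM in KO control and 13.3 ± 1.37 CPM in WT control (n = 4 each). Its log2 fold change was 0.77 ± 0.13 in KO and 1.00 ± 0.13 in WT, and -0.01 and 0.24 with total-count scaling. Ndufa1, another small membrane subunit, followed with 0.75 ± 0.09 in KO and 0.86 ± 0.09 in WT, and -0.03 and 0.11 with total-count scaling. Both have short transcripts.

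Complex II, succinate dehydrogenase, had all 4 subunits called higher in both genotypes on TMM scaling and all 4 called lower in both with total-count scaling. Of all genes tested, 40.0% were higher in KO and 40.7% in WT on TMM scaling. With total-count scaling 70.4% of them were lower in KO and 69.9% in WT. On TMM scaling the change was largest for Sdhc, a membrane anchor, and with total-count scaling it was the smallest fall of the 4. Sdhc lay at 52.2, 47.2, 54.3, 54.9 and 53.2 CPM in the KO LPS libraries and 52.8, 45.7, 51.2, 49.0 and 54.0 CPM in the WT LPS libraries. Without LPS it had 35.2, 35.5, 33.8 and 37.3 CPM in KO control and 36.1, 35.0, 31.6 and 34.8 CPM in WT control. All LPS libraries lay above all control libraries, by 0.56 ± 0.06 in KO and 0.56 ± 0.06 in WT on the log2 scale (edgeR adjusted p = 2.61e-08 and 3.35e-08). With total-count scaling these values were -0.22 and -0.19. Sdha, the flavoprotein that oxidises succinate, changed by 0.23 ± 0.04 in KO and 0.23 ± 0.04 in WT, and -0.56 and -0.51 with total-count scaling. Sdhb, the iron-sulphur subunit, changed by 0.27 in KO and 0.41 in WT, and Sdhd, the other anchor, by 0.19 and 0.25, both likewise negative with total-count scaling. All 4 stayed higher in both genotypes with the length-trend offset.

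In complex III, which passes electrons from ubiquinol to cytochrome c, 6 of 8 members rose and 1 fell in KO, and 7 rose and 0 fell in WT, on TMM scaling. With total-count scaling 0 were higher and 5 lower in KO, and 1 was higher and 5 lower in WT. Of all genes tested, 40.0% rose and 46.2% fell in KO, and 40.7% rose and 44.7% fell in WT, on TMM scaling. With total-count scaling 70.4% of them were lower in KO and 69.9% in WT, larger shares than in complex III. Uqcrb, a small subunit at the ubiquinone site, lay at 63.2, 60.7, 61.4, 60.1 and 62.4 CPM in the KO LPS libraries and 64.1, 64.8, 58.8, 60.0 and 58.0 CPM in the WT LPS libraries. Its levels without LPS were 34.8, 33.0, 34.4 and 42.6 CPM in KO control and 35.5, 33.0, 33.0 and 33.9 CPM in WT control. No LPS library overlapped a control library. The log2 fold change was 0.77 ± 0.06 in KO (edgeR adjusted p = 6.34e-10) and 0.85 ± 0.06 in WT (adjusted p = 1.33e-10), and -0.02 and 0.11 with total-count scaling. Uqcrh, the hinge protein that helps dock cytochrome c1, changed by 0.67 ± 0.10 in KO and 0.95 ± 0.10 in WT, and -0.11 and 0.20 with total-count scaling. Uqcrfs1, the Rieske iron-sulphur protein, changed by 0.54 ± 0.06 and 0.55 ± 0.06, or -0.25 and -0.20 with total-count scaling. The core proteins on the matrix side differed from each other. Uqcrc1 changed by 0.31 ± 0.05 in KO and 0.33 ± 0.05 in WT, or -0.47 and -0.41 with total-count scaling, whereas Uqcrc2 changed by -0.12 ± 0.04 in KO (adjusted p = 0.00948) and by 0.01 ± 0.04 in WT (adjusted p = 0.814). The call for Uqcrc2 in KO was lost with the length-trend offset, where its value was -0.00406.

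Complex IV, cytochrome c oxidase, showed the largest median of the 5 complexes in each genotype on TMM scaling, with 12 of 13 tested members higher and 1 lower in each genotype and medians of 0.59 in KO and 0.78 in WT. With total-count scaling 0 were higher and 8 lower in KO, and 1 was higher and 4 lower in WT. Of all genes tested, 40.0% rose and 46.2% fell in KO, and 40.7% rose and 44.7% fell in WT, on TMM scaling. With total-count scaling 70.4% of them were lower in KO and 69.9% in WT, larger shares than in complex IV. Cox5a, a subunit on the matrix side, lay at 106, 104, 103, 111 and 108 CPM in the KO LPS libraries and 115, 117, 104, 108 and 102 CPM in the WT LPS libraries. KO control libraries held 57.1, 56.5, 58.0 and 63.8 CPM and WT control libraries 60.2, 54.4, 55.0 and 55.9 CPM. The LPS and control libraries did not overlap, and the spread within each group was small beside the difference. Cox5a changed by 0.86 ± 0.05 in KO (edgeR adjusted p = 6.5e-12) and 0.95 ± 0.05 in WT (adjusted p = 1.38e-12), and it stayed positive with total-count scaling at 0.07 and 0.21. Among the paired isoforms, Cox4i1, the widely expressed form of subunit 4, changed by 0.59 in KO and 0.78 in WT, Cox6a1 by 0.68 and 0.82, Cox6b1 by 0.61 and 0.88, Cox7a2 by 0.63 and 0.68, Cox8a by 0.40 and 0.56, and Ndufa4 by 0.52 and 0.55. All of these values were negative in KO with total-count scaling, between -0.38 and -0.10, and in WT they lay between -0.19 and 0.14. Cox7a1 changed by 1.03 ± 0.23 in KO and 1.25 ± 0.25 in WT, and by 0.25 and 0.51 with total-count scaling. Its levels were low, at 0.717 to 1.09 CPM in KO LPS and 0.585 to 1.23 CPM in WT LPS. KO control libraries held 0.421 to 0.507 CPM and WT control libraries 0.193 to 0.490 CPM.

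The exception in complex IV was Cox7a2l, whose product links complexes III and IV in supercomplexes. It lay at 47.2, 47.9, 55.3, 50.2 and 52.5 CPM in the KO LPS libraries and 63.1, 50.4, 62.5, 61.3 and 55.9 CPM in the WT LPS libraries. Without LPS it had 124, 138, 125 and 146 CPM in KO control and 112, 121, 109.5 and 117 CPM in WT control. Every LPS library lay below every control library, and the LPS levels were less than the lowest control level by more than the spread of any group. The log2 fold change was -1.40 ± 0.07 in KO (edgeR adjusted p = 1.99e-13) and -0.97 ± 0.07 in WT (adjusted p = 7.16e-11), or -2.18 and -1.71 with total-count scaling, and -1.36 and -1.12 with the length-trend offset. Its relatives Cox7a1 and Cox7a2, which sit at the same place in complex IV, had positive values on TMM scaling, as given above.

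**Figure D2:**
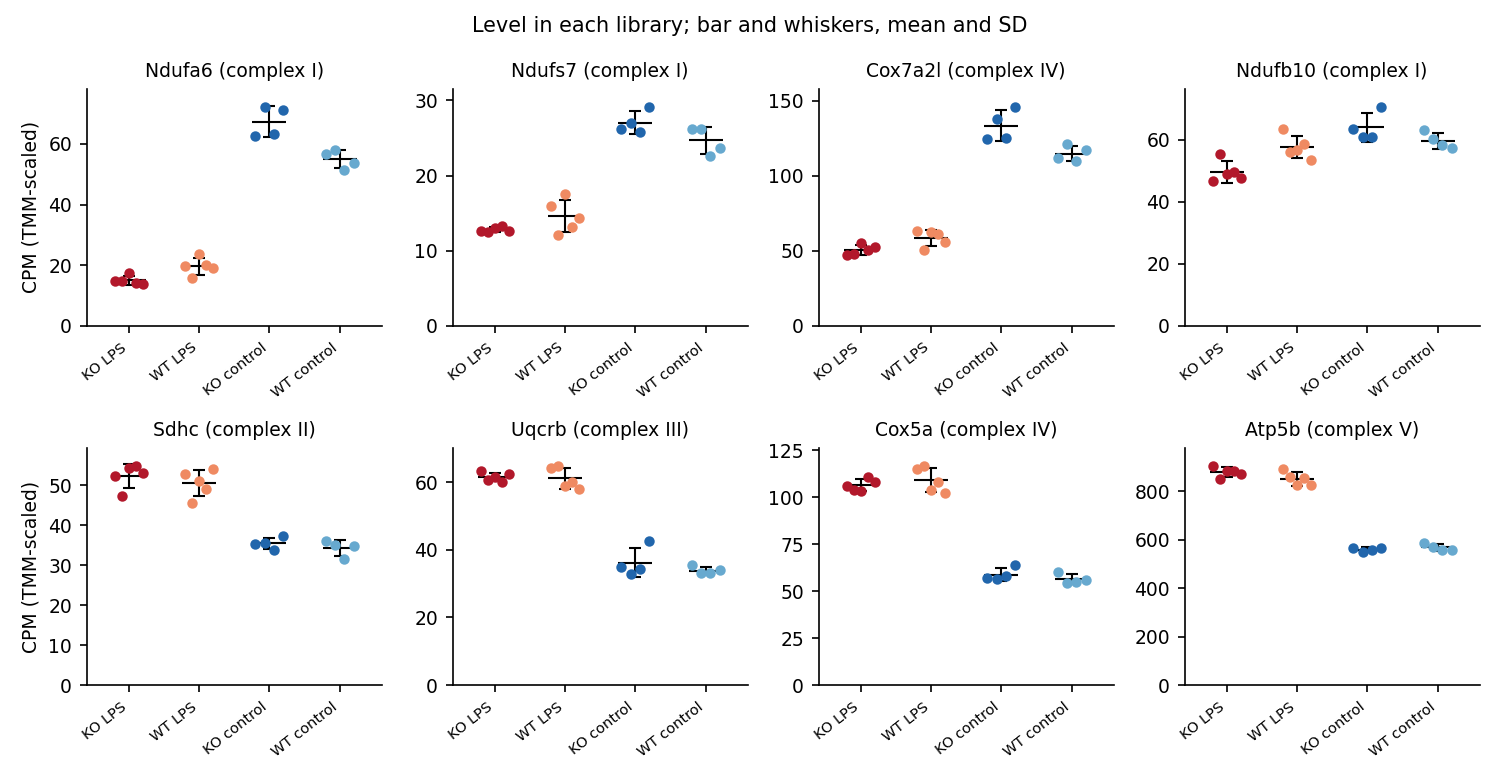
Level (y axis, TMM-scaled CPM, from 0) of 8 members in each library of the 4 groups (x axis); points are libraries, and bars with whiskers are the mean and SD of a group. LPS libraries of Ndufa6, Ndufs7 and Cox7a2l lie below all control libraries; those of Sdhc, Uqcrb, Cox5a and Atp5b lie above all control libraries on this scale, and with total-count scaling Sdhc and Atp5b are negative in both genotypes and Uqcrb in KO.

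Complex V, the ATP synthase, had most members higher on TMM scaling, with 15 of 17 members higher and 2 lower in KO, and 16 higher and 0 lower in WT. With total-count scaling 14 were lower in KO and 8 in WT, and none was higher. Of all genes tested, 40.0% rose and 46.2% fell in KO, and 40.7% rose and 44.7% fell in WT, on TMM scaling. With total-count scaling 70.4% of them were lower in KO and 69.9% in WT. Atp5b, the catalytic beta subunit of the F1 head, lay at 905, 852, 883, 882 and 872 CPM in the KO LPS libraries and 892, 860.3, 824, 854 and 826 CPM in the WT LPS libraries. Its levels without LPS were 567, 548, 556 and 566 CPM in KO control and 587, 571, 556 and 559 CPM in WT control. No LPS library overlapped a control library, and the change was 0.65 ± 0.04 in KO (edgeR adjusted p = 4.65e-12) and 0.58 ± 0.04 in WT (adjusted p = 3.11e-11), or -0.13 and -0.16 with total-count scaling. Atp5a1, the alpha subunit of the same head, changed by 0.43 ± 0.04 and 0.44 ± 0.04, or -0.35 and -0.30 with total-count scaling. Atp5c1, the gamma subunit that turns inside the head, did not follow them. It lay at 118, 110.3, 123, 122 and 116 CPM in the KO LPS libraries and 129, 127, 129, 121 and 125 CPM in the WT LPS libraries. KO control libraries held 131, 132, 132 and 146 CPM and WT control libraries 141, 131, 121 and 129.8 CPM. With LPS it fell in KO on TMM scaling, with a log2 fold change of -0.20 ± 0.05 (edgeR adjusted p = 0.00104), while in WT the value was -0.05 ± 0.05 (adjusted p = 0.351). In KO all LPS libraries lay below all control libraries on this scaling, and in WT the groups overlapped. With total-count scaling the values were -0.98 in KO and -0.80 in WT, and with the length-trend offset -0.15 and -0.18. On TMM scaling Atp5c1 was the 1 of 5 F1 subunits that was not called higher in either genotype. It takes part in a rotor whose c ring is encoded by 3 genes for the same mature protein. Of those, on TMM scaling, Atp5g3 changed by 0.78 ± 0.06 in KO and 0.82 ± 0.06 in WT (-9.81e-05 and 0.08 with total-count scaling), Atp5g1 by 0.27 ± 0.10 and 0.47 ± 0.10, and Atp5g2 by -0.15 ± 0.05 and 0.11 ± 0.05, and Atp5g1 is named after its values were seen. Atp5g2 and Atp5g3 had the higher levels per length, with 402 and 700.4 TPM in KO LPS, 453 and 715 TPM in WT LPS, 703 and 641 TPM in KO control, and 696 and 682 TPM in WT control. Of the 12 members of the membrane part and the stalks, 11 rose and 1 fell in KO, and all 12 rose in WT, on TMM scaling. Atp5md, a small subunit of the dimer interface, changed by 0.71 ± 0.09 in KO and 0.85 ± 0.09 in WT, or -0.07 and 0.10 with total-count scaling.

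**Figure D3:**
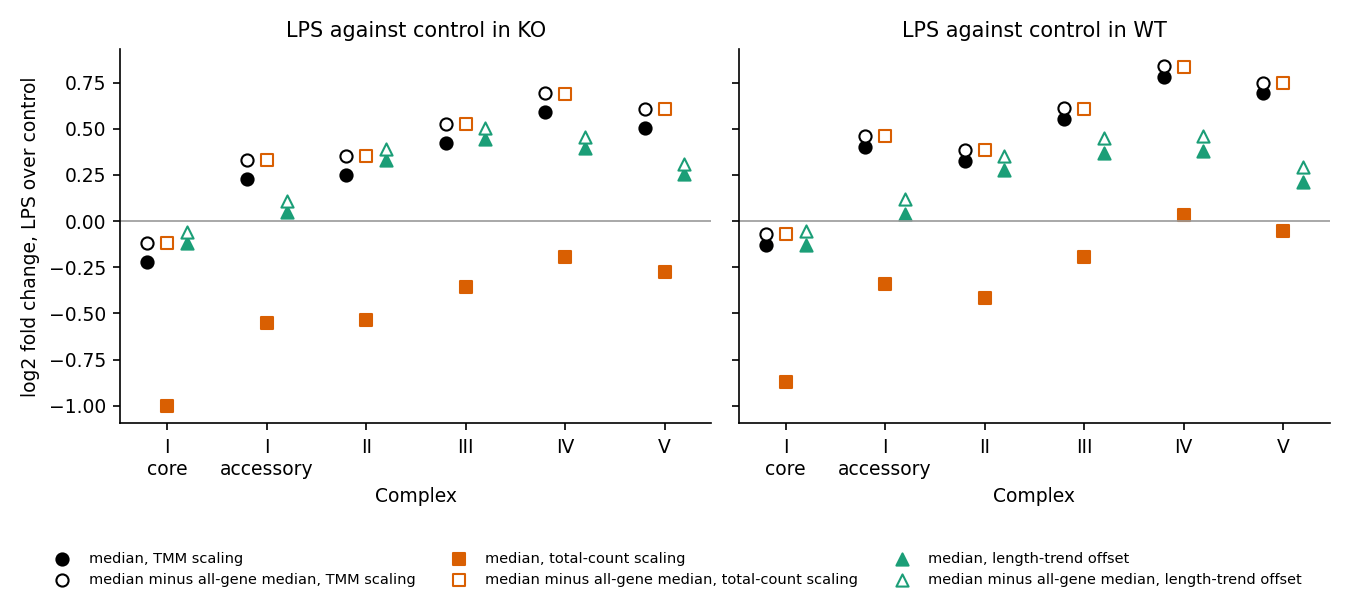
Median log2 fold change of LPS over control (y axis) by complex (x axis) in KO cells (left) and WT cells (right), with 3 ways of scaling the libraries. Filled symbols are medians as fitted and open symbols are the same medians minus that of all genes tested; with total-count scaling the filled symbols fall below 0 apart from complex IV in WT (0.04), while the open squares lie level with the open circles of TMM scaling, and the length-trend offset lies below TMM scaling in complexes IV and V and in the accessory subunits of complex I.

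Members have short transcripts, with a median effective length of 0.392 kb against 2.55 kb for all genes tested, and the fold changes varied with length. Across the 79 members, which are not independent of each other, the Spearman correlation of the LPS fold change with length was -0.32 in KO and -0.48 in WT, beside 0.04 and -0.03 across 11244 genes. With the length-trend offset 45 members were higher and 16 lower in KO, and 46 higher and 13 lower in WT. Of all genes tested, 41.5% were then higher and 45.3% lower in KO, and 40.4% higher and 45.5% lower in WT. The members' excess over the all-gene median became 0.26 in KO and 0.24 in WT. Complex I medians then lay at -0.03 in KO and -0.04 in WT, and those of complexes II, III, IV and V at 0.33, 0.44, 0.40 and 0.25 in KO and 0.27, 0.37, 0.38 and 0.21 in WT. Ndufa6, Ndufs7 and Cox7a2l stayed lowest of the named members, with -2.36, -1.13 and -1.36 in KO and -1.89, -1.01 and -1.12 in WT.

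**Figure D4:**
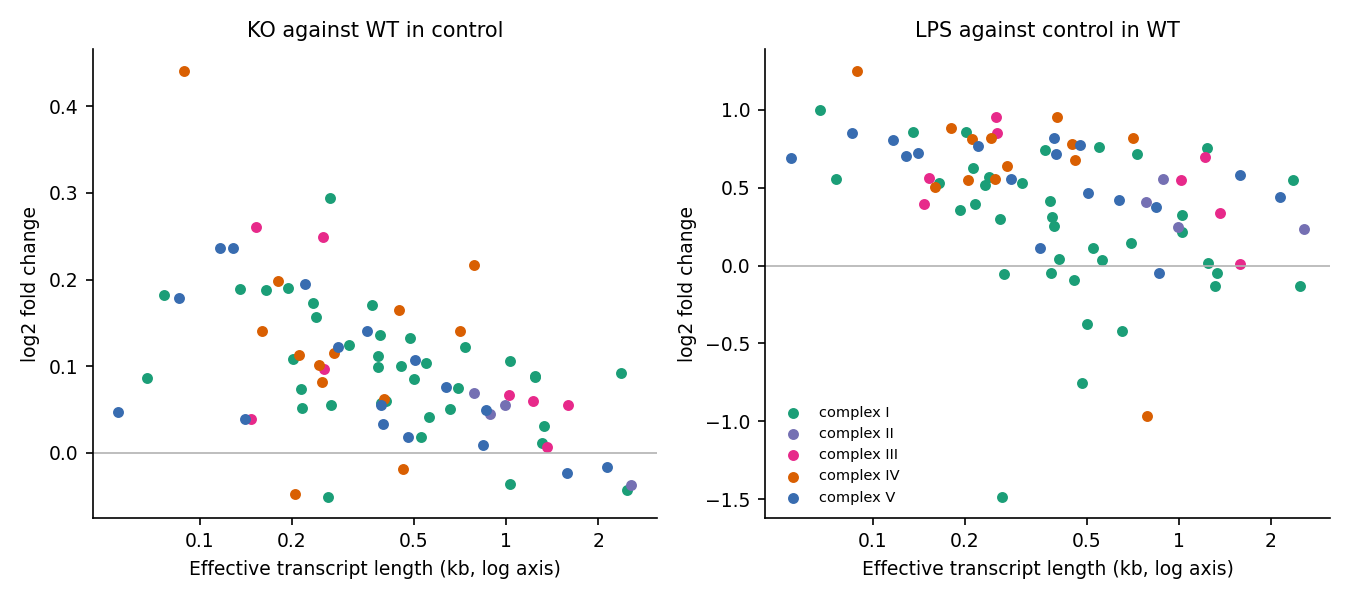
Log2 fold change (y axis) against effective transcript length (x axis, log scale, kb) for the 79 tested members, coloured by complex, for KO over WT in control cells (left) and LPS over control in WT cells (right). In both panels short members tend to lie higher, with Spearman correlations of -0.52 and -0.48 across members; the lowest point on the right is Ndufa6 at -1.48, a value given on TMM scaling.

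With LPS, KO cells had lower levels than WT cells of 4 accessory subunits of complex I and of Cox7a2l. Of 79 members, 0 were called higher and 5 lower (6.33%), where 5.30% of all genes tested were higher and 5.50% lower, so the share that was lower is near the background. DESeq2 and limma-voom called 0 members higher too. Of the 79 members, 15 had an unadjusted edgeR p under 0.05 in either direction, as did 3147 of the 11989 genes tested. The members' median was -0.08, beside -0.02 for all genes tested. Complex I held 4 of the 5. Ndufa6 lay at 14.8, 14.8, 17.3, 14.0 and 13.8 CPM in KO LPS, against 19.8, 15.6, 23.5, 19.9 and 19.2 CPM in WT LPS. All KO libraries but replicate 3 lay below all WT libraries, the lowest of which was WT LPS replicate 2, and the log2 difference was -0.39 ± 0.09 (edgeR adjusted p = 0.00732). Ndufb11, an accessory subunit of the membrane arm, lay at 48.4, 53.2, 50.8, 49.7 and 45.3 CPM in KO LPS, against 69.1, 56.0, 55.7, 59.7 and 57.0 CPM in WT LPS. The genotypes did not overlap there (-0.27 ± 0.06, adjusted p = 0.0084), but its gene overlaps Rbm10 and strand was not stated to be used in counting. Ndufb10, an accessory subunit with cysteine motifs of the intermembrane space, lay at 46.6, 55.5, 48.9, 49.8 and 47.5 CPM in KO LPS, against 63.5, 56.1, 56.7, 58.6 and 53.5 CPM in WT LPS. Only KO LPS replicate 2 reached into the WT range, and the difference was -0.22 ± 0.06 (adjusted p = 0.0235).

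Ndufb4, another membrane-arm subunit, lay at 10.2, 9.55, 8.45, 9.27 and 9.97 CPM in KO LPS, against 11.3, 14.9, 13.1, 12.0 and 9.79 CPM in WT LPS, with a difference of -0.36 ± 0.10 (edgeR adjusted p = 0.0307). The groups overlapped, since KO LPS replicates 1 and 5 lay above WT LPS replicate 5. Its counts were not whole (by more than 0.001) in any library, and neither were those of its near-copy Ndufb4c, so the share of reads given to each is uncertain. Cox7a2l lay at 47.2, 47.9, 55.3, 50.2 and 52.5 CPM in KO LPS, against 63.1, 50.4, 62.5, 61.3 and 55.9 CPM in WT LPS, with a difference of -0.21 ± 0.07 (adjusted p = 0.0478), and WT LPS replicate 2 fell among the KO libraries. The Cox7a2l call was lost in 15 of 18 fits that each left out a library, that of Ndufb10 in 5 and that of Ndufb4 in 4, whereas Ndufa6 and Ndufb11 stayed called in all 18. With the length-trend offset only Ndufb11 remained called, and the adjusted p was 0.0573 for Ndufa6 and 0.171 for Cox7a2l. Without WT LPS replicate 2, which stood apart in the whole profile, 12 members were lower, while 14.2% of all genes tested were then lower. Marker sums differed here too, with the cDC1 list at 2593 to 3237 CPM in KO LPS and 3129 to 3802 CPM in WT LPS, where Naaa (514 CPM in KO LPS, 986 CPM in WT LPS) and Xcr1 (281 and 428 CPM) had lower means in KO LPS and Irf8 (1569 and 1379 CPM) and Cadm1 (155 and 113 CPM) higher ones, and lymphocyte genes at 8.74 to 9.68 CPM in KO LPS and 5.41 to 7.25 CPM in WT LPS, and their part in the result was not tested. With total-count scaling 19 members were lower, beside 9.94% of all genes tested, and the members' median was -0.16 beside -0.10. On TMM scaling no subunit of complex II, III or V was called between genotypes with LPS, and their log2 differences lay between -0.15 and 0.06. With total-count scaling 1 subunit of complex III, Uqcrc2, and 3 of complex V were among the members called lower.

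In control cells no member was called between KO and WT in the fit without a block. By edgeR's test 0 were higher and 0 lower, where 1.89% of all genes tested were higher and 0.525% lower (2.41% in all). Of the 79 members, 14 had an unadjusted edgeR p under 0.05, as did 1665 of the 11989 genes tested. DESeq2 and limma-voom each called 1 member higher, Ndufa6 in both, and a block of library sets (4 consecutive library numbers each) called 5 higher, namely Atp5e, Cox6b1, Cox7a2l, Ndufa6 and Uqcr10, where 3.76% of all genes tested were then higher. Ndufa6 lay at 62.6, 72.3, 63.4 and 71.1 CPM in KO control, against 56.6, 57.9, 51.4 and 53.8 CPM in WT control. All KO libraries lay above all WT libraries, but the difference of 0.29 ± 0.09 had an adjusted p of 0.0901 with edgeR. The members' median was 0.09, beside 0.02 for all genes, and 71 of 79 had a positive difference. Without KO control replicate 4, the library with the highest summed level of the members (5458 CPM, against 4993 to 5016 CPM in the other KO control libraries), the median was 0.05. The difference followed transcript length, with a Spearman correlation of -0.52 across members and -0.38 across 11244 genes, and with the length-trend offset the median was -0.03. Cell cycle genes also differed between these groups, with 10 proliferation genes summing to 1049 to 1118 CPM in KO control, against 1403 to 1623 CPM in WT control. Their part in the subunits' levels was not tested.

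**Figure D5:**
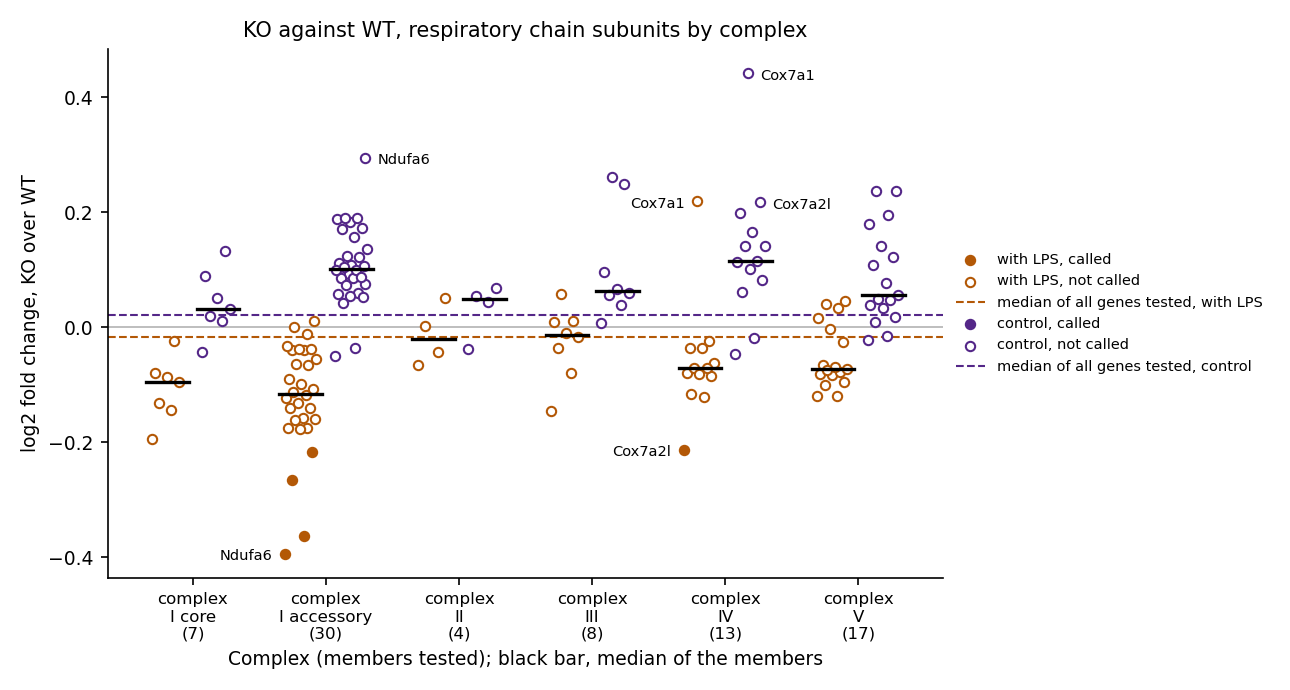
Each point is a tested member, with its log2 fold change of KO over WT (y axis, TMM scaling) with LPS (orange, left) and in control cells (purple, right), by complex (x axis, with the number tested). Filled points were called and open points were not; the 5 filled points are Ndufa6, Ndufb4, Ndufb11, Ndufb10 and Cox7a2l with LPS, no point was called in control cells, and black bars and dashed lines are the medians of the members and of all genes tested.

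Whether the response to LPS differed between genotypes was tested as the interaction, the log2 fold change with LPS in KO minus that in WT. Of 79 members, 0 were called higher and 5 lower (6.33%), where 1.03% of all genes tested were higher and 2.79% lower (3.82% in all). Of the members, 28 had an unadjusted edgeR p under 0.05 in either direction, as did 2233 of the 11989 genes tested. DESeq2 and limma-voom called 0 higher as well. The 5 were Ndufa6 (-0.69 ± 0.13, adjusted p = 0.00366), Ndufb4 (-0.55 ± 0.15, 0.0491), Cox7a2l (-0.43 ± 0.10, 0.0196), Ndufb10 (-0.32 ± 0.09, 0.0497) and Atp5g2 (-0.26 ± 0.06, 0.0296). Ndufa6 and Cox7a2l fell with LPS in both genotypes, and by more in KO. Ndufb4 lay at 9.97, 9.39, 8.58 and 10.6 CPM in KO control, against 9.15, 6.95, 8.80 and 8.95 CPM in WT control, beside the LPS values above. Its LPS and control libraries overlapped in KO and did not overlap in WT. On TMM scaling it changed by -0.02 ± 0.11 in KO (adjusted p = 0.836) and by 0.53 ± 0.11 in WT (adjusted p = 0.000146). With total-count scaling these values were -0.81 in KO and -0.22 in WT, and with the length-trend offset -0.33 and 0.0045. Ndufb10 lay at 63.4, 61.0, 61.0 and 70.8 CPM in KO control, against 63.1, 60.3, 58.3 and 57.3 CPM in WT control, so that all KO LPS libraries lay below all KO control libraries, whereas the WT groups overlapped. On TMM scaling it changed by -0.37 ± 0.06 in KO (adjusted p = 1.65e-05) and by -0.05 ± 0.06 in WT (adjusted p = 0.448). It was negative in both genotypes with total-count scaling (-1.15 in KO and -0.79 in WT) and with the length-trend offset (-0.47 and -0.37). Atp5g2 lay at 119, 118, 120.3, 122 and 115 CPM in the KO LPS libraries and 138, 126, 125, 133 and 124 CPM in the WT LPS libraries. Without LPS it had 126, 137, 132 and 133 CPM in KO control and 125, 116, 113 and 124 CPM in WT control. On TMM scaling its log2 fold change with LPS was -0.15 ± 0.05 in KO and 0.11 ± 0.05 in WT, and it was negative in both with total-count scaling (-0.93 and -0.63) and with the length-trend offset (-0.27 and -0.23). The KO LPS and KO control libraries of Atp5g2 did not overlap, and the WT groups overlapped at their edges.

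By complex, the median of the interaction was -0.20 in complex I, -0.03 in complex II, -0.11 in complex III, -0.19 in complex IV and -0.14 in complex V, beside -0.05 for all genes tested. Across the members it had a Spearman correlation of 0.42 with transcript length, and 0.40 across 11244 genes. With the length-trend offset none of the 5 stayed called, the members' median was 0.02 and 1 member, Atp5b, was called higher. Ndufa6 was called in all 18 fits that left out a library, Cox7a2l in 17, Atp5g2 in 11, Ndufb10 in 4 and Ndufb4 in 2. Leaving out WT LPS replicate 2 again moved the count, to 10 members lower, while 8.06% of all genes tested were then lower and 4.48% higher.

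Genes that work beside the subunits are given in the same way, on TMM scaling unless stated. Cycs, which encodes the cytochrome c that carries electrons between complexes III and IV, lay at 336, 337, 362, 333 and 324 CPM in the KO LPS libraries and 349, 361, 331, 348 and 340.1 CPM in the WT LPS libraries. Its levels without LPS were 118, 106, 112 and 131 CPM in KO control and 129, 108, 115 and 113 CPM in WT control. The LPS and control libraries did not overlap, and its change of 1.54 ± 0.06 in KO and 1.57 ± 0.06 in WT was above that of every member on the same scaling, and it stayed positive with total-count scaling (0.76 and 0.83). AA467197, the mouse counterpart of human C15orf48 and a paralogue of Ndufa4, lay at 8.35, 8.36, 3.85, 6.37 and 6.56 CPM in the KO LPS libraries and 5.60, 12.6, 2.68, 3.69 and 7.41 CPM in the WT LPS libraries. KO control libraries held 0.169, 0.169, 0.0561 and 0.138 CPM and WT control libraries 0.163, 0.0550, 0.0833 and 0.248 CPM. It was nearly unread in control libraries and passed the filter on low counts only through the LPS libraries. Its log2 fold change of 5.61 ± 0.52 in KO and 5.48 ± 0.52 in WT is therefore given as a description, without a test. Ndufa4 itself changed by 0.52 and 0.55. Per length, Ndufa4 at 314 TPM in KO LPS and 344 TPM in WT LPS stayed above AA467197 at 23.0 and 22.1 TPM. Cyc1, the cytochrome c1 gene, changed by 0.25 ± 0.07 and 0.34 ± 0.07, or -0.53 and -0.39 with total-count scaling. Ndufab1, the acyl carrier protein that Ndufa6 binds, was not called in any comparison on TMM scaling. With total-count scaling it was called lower with LPS in both genotypes, where 70.4% of all genes tested were lower in KO and 69.9% in WT. Atpif1, the inhibitor of the ATP synthase, changed by 0.08 ± 0.07 in KO (adjusted p = 0.275) and 0.31 ± 0.07 in WT (adjusted p = 0.000571), or -0.70 and -0.44 with total-count scaling.

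Assembly factors, which build the complexes without staying in them, had their calls on the lower side for complexes I, III and V under each of the 3 scalings, and for complex IV the calls divided on TMM scaling. As given above, 40.0% of all genes tested were higher and 46.2% lower in KO, and 40.7% and 44.7% in WT, and 70.4% in KO and 69.9% in WT were lower with total-count scaling. Of 17 factors of complex I, 2 rose and 12 fell in KO, and 4 rose and 9 fell in WT, with Dmac2 at -1.87 and -1.81 and Ecsit, which also acts in Toll-like receptor signalling, at -1.58 and -1.47. Of 6 factors of complex III, 0 rose and 4 fell in KO, and 1 rose and 5 fell in WT, among them Bcs1l, which inserts the Rieske protein, at -2.50 and -2.09. The 4 factors of complex II had 2 higher and 2 lower in each genotype, and 0 higher and 3 lower with total-count scaling. The 23 factors of complex IV went both ways, near those shares in KO, with 10 higher and 11 lower in KO, and 11 higher and 8 lower in WT, and with 3 higher in each, 17 lower in KO and 19 lower in WT with total-count scaling. Sco1, a copper chaperone, lay at 39.5, 42.5, 35.3, 37.9 and 40.7 CPM in the KO LPS libraries and 38.2, 52.3, 34.2, 37.6 and 37.2 CPM in the WT LPS libraries. Without LPS it had 7.10, 7.84, 6.90 and 8.65 CPM in KO control and 7.68, 8.11, 7.67 and 7.11 CPM in WT control. The LPS libraries lay above all controls by 2.36 ± 0.11 in KO and 2.38 ± 0.11 in WT, or 1.58 and 1.63 with total-count scaling. Its relative Sco2 changed by -2.39 ± 0.16 and -2.05 ± 0.16, and Cox17, which hands copper to both, by 1.11 ± 0.12 and 1.20 ± 0.12. Surf1, a factor whose loss causes Leigh syndrome in humans, fell by 2.12 ± 0.11 in KO and 1.61 ± 0.11 in WT and was lower in KO than in WT with LPS (-0.41 ± 0.13, edgeR adjusted p = 0.0429; 0.0954 with the length-trend offset). Of the 4 factors of complex V, 1 rose and 3 fell in each genotype. The riser was Tmem70, which helps build the c ring, at 1.07 ± 0.09 in KO and 0.78 ± 0.09 in WT, or 0.29 and 0.03 with total-count scaling, and it was also higher in KO than in WT with LPS, at 44.6 ± 5.54 CPM in KO LPS against 34.1 ± 4.16 CPM in WT LPS (SD, n = 5 each; 0.39 ± 0.09, adjusted p = 0.00563). Cox14, which acts in the early building of complex IV, was the 1 gene of these lists called between genotypes in control cells, at 22.7 ± 0.918 CPM in KO and 18.4 ± 1.22 CPM in WT (SD, n = 4 each; 0.30 ± 0.06, adjusted p = 0.0101), a call that was lost with the length-trend offset (adjusted p = 0.0988).

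The 13 tested genes of the tricarboxylic acid cycle outside complex II were called in both directions on TMM scaling. In KO 6 were higher (46.2%) and 6 lower (46.2%), beside 40.0% and 46.2% of all genes tested. In WT 7 were higher (53.8%) and 6 lower (46.2%), beside 40.7% and 44.7%. With total-count scaling 1 was higher and 10 lower in KO, and 1 higher and 11 lower in WT. At that scaling 20.2% of all genes tested were higher and 70.4% lower in KO, and 19.8% and 69.9% in WT. Cs, citrate synthase, changed by 0.93 ± 0.04 in KO and 0.86 ± 0.04 in WT, or 0.15 and 0.12 with total-count scaling, and Ogdh, of the oxoglutarate dehydrogenase complex, by 0.74 ± 0.06 and 0.57 ± 0.06, or -0.04 and -0.18 with total-count scaling. The genes on either side of succinate dehydrogenase fell on TMM scaling and lay lower still with total-count scaling, with Suclg1 and Suclg2 of succinyl-CoA ligase at -0.47 and -0.76 in KO and -0.24 and -0.50 in WT, and Fh1, fumarate hydratase, at -1.36 ± 0.08 in KO and -0.95 ± 0.08 in WT, although Sucla2, the other partner of Suclg1, changed by 0.11 (not called) and 0.22, or -0.67 and -0.53 with total-count scaling. Fh1 was also lower in KO than in WT with LPS, at 24.5 ± 2.06 CPM in KO LPS against 33.4 ± 3.76 CPM in WT LPS (SD, n = 5 each; -0.45 ± 0.08, edgeR adjusted p = 0.000628), and the interaction was -0.41 ± 0.11 (adjusted p = 0.04), a call that was lost with the length-trend offset (0.138) and with total-count scaling (0.0573). Of 13 tested regulators of mitochondrial genes, 3 rose and 8 fell in each genotype on TMM scaling (medians of -0.45 in KO and -0.33 in WT, beside -0.10 and -0.06 for all genes tested), and with total-count scaling 1, Gabpb1, was higher and 11 were lower (medians of -1.23 and -1.08, beside -0.88 and -0.80). Of all genes tested, 40.0% rose and 46.2% fell in KO, and 40.7% rose and 44.7% fell in WT, on TMM scaling. With total-count scaling 70.4% of them were lower in KO and 69.9% in WT. The 3 regulators that rose on TMM scaling were Nrf1 (0.53 in KO and 0.40 in WT, or -0.25 and -0.34 with total-count scaling), Gabpa (0.48 and 0.38, or -0.30 and -0.37) and Gabpb1 (0.99 and 0.94), which encode NRF1 and the 2 parts of the factor that binds the GABPA letters. Yy1, the gene of the third factor searched in the promoters, was among those that fell, with -0.19 ± 0.05 in KO (edgeR adjusted p = 0.0012) and -0.22 ± 0.05 in WT (adjusted p = 0.000322), or -0.97 and -0.96 with total-count scaling. Genes for the copying and reading of mitochondrial DNA were among those that fell, with the helicase gene Twnk at -2.37 and -2.17 and the RNA polymerase gene Polrmt at -1.48 and -1.41. Ppargc1a, a coactivator of these genes in muscle and brown fat, did not pass the filter.

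Of 19 genes of ubiquinone synthesis, of mitochondrial carriers and of other enzymes that feed ubiquinone, 4 rose and 12 fell in KO, and 5 rose and 8 fell in WT, on TMM scaling. The share that fell in KO was 63.2%, beside 46.2% of all genes tested, and the share that fell in WT (42.1%) was near their 44.7%. Of all genes tested, 40.0% rose in KO and 40.7% in WT. With total-count scaling 1 was higher and 17 lower in KO, and 2 higher and 17 lower in WT, where 70.4% of all genes tested were lower in KO and 69.9% in WT. Pdss1, which makes the ubiquinone side chain, changed by 2.16 ± 0.10 in KO and 2.15 ± 0.10 in WT, or 1.38 and 1.41 with total-count scaling, and Coq8a, a kinase-like protein of the same pathway, by -3.58 ± 0.19 and -3.05 ± 0.19. Among enzymes that reduce ubiquinone, Gpd2, the mitochondrial glycerol phosphate dehydrogenase, changed by 0.91 ± 0.06 in KO and 1.01 ± 0.06 in WT, or 0.13 and 0.26 with total-count scaling, and Dhodh, of pyrimidine synthesis, by -2.71 ± 0.12 and -2.26 ± 0.12. Gpd2 was lower in KO than in WT with LPS, at 147 ± 9.27 CPM in KO LPS against 181 ± 11.4 CPM in WT LPS (SD, n = 5 each; -0.30 ± 0.06, edgeR adjusted p = 0.00173). Slc25a4, an adenine nucleotide carrier, was lower in KO as well, at 58.4 ± 2.88 CPM in KO LPS against 66.3 ± 2.21 CPM in WT LPS (-0.18 ± 0.05, adjusted p = 0.0133), with an interaction of -0.28 ± 0.07 (adjusted p = 0.0261; 0.283 with the length-trend offset).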

How the data were processed

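RNA reads of 150 bases from 18 libraries were aligned and counted by the authors, and HISAT, Bowtie2 and the mouse build GRCm39 are named in the submitters' processing notes, without versions or roles. The deposited table holds estimated counts per gene (6.37% of the values were more than 0.001 from a whole number), and separate columns, made by the authors, hold FPKM and TPM values. Counts were rounded to whole numbers. TPM served only to compare levels between genes within a group, and FPKM only to derive an effective transcript length from its ratio to the counts, for genes with an FPKM of 0.5 or more.

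Genes were kept with filterByExpr (minimum count 10, minimum total 15), which left 11989 of 16614. A single quasi-likelihood model over all 18 libraries with a mean per group (edgeR 4.0.16, limma 3.58.1, R 4.3.3, TMM factors) gave 5 comparisons, each adjusted by Benjamini-Hochberg over all genes tested with a threshold of 0.05. The script was tested on simulated data. DESeq2 1.42.0, limma-voom, total-count scaling, no filter, fits of 2 groups, blocks, a length-trend offset and leaving out libraries were the alternatives. Totals were 25590104 to 27375189 counts per library, so counting error is small for most members. No pair of libraries of a group agreed within sampling noise (chi-square per gene of 2.70 or more).

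Members named whatever their values were the subunits of complex II, Ndufs1, Ndufv1, Uqcrc1, Uqcrc2, Uqcrfs1, Atp5a1, Atp5b and the paired isoforms of complex IV, and 1 further member that is not reported here. To these came every member called between genotypes or in the interaction and, per complex and LPS comparison, the 2 called members at each end of the fold changes. The members and lists were chosen with earlier results of these data known. Promoter sequences are those of RefSeq. Figures were drawn with matplotlib 3.10.9.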

Additional observations from a re-analysis of the deposited data

Results flagged for a closer look

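A library stood apart from the rest of its group in 15 of 160 checks of a group's levels, by a gap to its nearest neighbour above Dixon's 95% critical value, which chance alone gives in about 1 in 20. KO control replicate 4 was the high library in 6 of them, with summed levels of 1306 CPM in complex I, 1046 CPM in complex IV, 2309 CPM in complex V and 5458 CPM over all members, and with 146.4 CPM for Atp5c1 and 145.6 CPM for Atp5g3. WT LPS replicate 1 was high for complex I as a whole (1380 CPM) and for Cox6a1 (199.9 CPM). WT LPS replicate 2 was the high library for Ndufb1 (38.9 CPM) and for Atp5md (54.2 CPM). KO LPS replicate 2 lay apart for Ndufb1 (28.0 CPM) and Uqcrc1 (125.1 CPM), and KO LPS replicate 3 for Ndufa6 (17.3 CPM). WT LPS replicate 5 lay apart for Ndufs1 (39.4 CPM) and WT control replicate 2 for Ndufb4 (6.95 CPM).

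The response to LPS differed between KO and WT by edgeR's test of the interaction for 5 members, with log2 differences of -0.69 for Ndufa6, -0.55 for Ndufb4, -0.43 for Cox7a2l, -0.32 for Ndufb10 and -0.26 for Atp5g2, each with an adjusted p under 0.05. With the length-trend offset none of these 5 stayed called.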

How the results depend on the processing

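Of the LPS results, the counts of members called depended on the scaling, and the members' excess over the median of all genes was alike with TMM and total-count scaling (0.44 and 0.43 in KO, 0.59 in WT with both) but 0.26 in KO and 0.24 in WT with the length-trend offset. With total-count scaling, 0 members were higher and 65 lower in KO, and 2 higher and 49 lower in WT, against 52 and 17 in KO and 62 and 6 in WT with TMM. Of all genes tested, 20.2% were higher and 70.4% lower in KO, and 19.8% and 69.9% in WT, with total-count scaling. With TMM these shares were 40.0% and 46.2% in KO, and 40.7% and 44.7% in WT. With the length-trend offset 13 were lower in WT, where 45.5% of all genes tested were lower. Named members changed sign with total-count scaling as follows. In KO the log2 fold changes became -0.56 for Sdha, -0.51 for Sdhb, -0.22 for Sdhc, -0.59 for Sdhd, -0.0169 for Uqcrb, -0.47 for Uqcrc1, -0.25 for Uqcrfs1, -0.11 for Uqcrh, -0.19 for Cox4i1, -0.10 for Cox6a1, -0.18 for Cox6b1, -0.16 for Cox7a2, -0.38 for Cox8a, -0.27 for Ndufa4, -0.0348 for Ndufa1, -0.0085 for Ndufb1, -0.35 for Atp5a1, -0.13 for Atp5b, -9.81e-05 for Atp5g3 and -0.0737 for Atp5md. In WT they became -0.51 for Sdha, -0.34 for Sdhb, -0.19 for Sdhc, -0.50 for Sdhd, -0.41 for Uqcrc1, -0.74 for Uqcrc2, -0.20 for Uqcrfs1, -0.0700 for Cox7a2, -0.19 for Cox8a, -0.19 for Ndufa4, -0.71 for Ndufb11, -0.22 for Ndufb4, -0.30 for Atp5a1, -0.16 for Atp5b and -0.63 for Atp5g2. The length-trend offset turned Atp5g2 to -0.23 and Ndufb11 to -0.19 in WT. Between genotypes with LPS, 19 members were lower with total-count scaling, 2 with only the groups compared in the fit and 1 with the length-trend offset, against 5. Of all genes tested, 9.94%, 2.8% and 5.05% were lower in the same order, against 5.5%. In control cells, 1 member was higher with DESeq2, limma-voom or the replicate block, 2 without the libraries numbered 5 and 7, 4 with only the groups compared and 5 with a block of library sets, against 0. Of all genes tested, 2.76% were higher with DESeq2, 2.57% with limma-voom and 1.76% with the replicate block. The other settings had 3.62%, 4.22% and 3.76% higher in the order given, against 1.89%. For the interaction, 2 were lower without a filter, 3 with the replicate block, 8 with the block of library sets and 0 (1 higher) with the length-trend offset, against 5. Of all genes tested, 1.53%, 2.45%, 5.27% and 1.5% were lower in the same order, against 2.79%. With the length-trend offset 1.34% of them were higher. The causes were not tested. Leaving out 1 library gave 2 to 12 lower with LPS, 0 to 5 higher in control cells and 1 to 10 lower in the interaction, the highest of each without WT LPS replicate 2 and the 1 without WT control replicate 3. Without WT LPS replicate 2, the shares of all genes tested were 14.2%, 4.02% and 8.06% in the same order. In the interaction 1.36% of them were lower without WT control replicate 3. When 1 library was left out, the LPS counts stayed at 52 to 54 higher and 16 to 17 lower in KO and 59 to 62 higher and 5 to 7 lower in WT. Of all genes tested, 39.1% to 40.6% were then higher and 45.4% to 47.1% lower in KO. In WT these shares were 39.9% to 40.9% and 43.8% to 44.9%. Replicate numbers are not stated to pair libraries, and the correlation of deviations of libraries with the same number ran from -0.22 to 0.35, so the replicate block is given only here. By sets of consecutive library numbers, all 4 WT LPS libraries with a WT control library in their set correlated with it at 0.14 to 0.27, each above the other pairs, but this did not hold in every pair of the other group comparisons, and the block of sets left the LPS counts in WT at 62 higher and 6 lower. With that block 41.1% of all genes tested were higher and 45.4% lower in WT. Depth limits Cox7a1, at 0.193 to 1.23 CPM, and the 7 members left untested, more than the rest.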
